A study of Mus musculus with 142 samples.

Results

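The region described here is a stretch of mouse chromosome 13 around the genes Trpc7 and Spock1, chr13:56000001-58500000 in the mm10 build, in which the castaneus (CAST) copy replicated earlier than the musculus copy. It was chosen on the measured difference between the alleles, so that difference is given as a description and is not tested. The members are the 50 windows of 50 kb that lie in this interval, of 49264 windows on the 19 autosomes, and the 23 of them between 56.75 and 57.9 Mb are called the gene interval below. All 50 windows had values on both alleles in at least 48 clones.

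The cells were F121-9 mouse embryonic stem cells (mESCs), a hybrid line with one chromosome set from a laboratory (musculus) strain and one from Mus musculus castaneus, grown in 2i + LIF. Replication timing (RT) was measured by E/L Repli-seq, in which cells were pulsed with BrdU for 2 h and sorted into early and late S phase, and the newly made DNA of each fraction was sequenced. A window's RT is log2(E/L), the log ratio of early to late reads, so values above 0 are early and values below 0 are late. Every clone carried a CRISPR deletion in the Dppa2/4 and Morc1 domain of chromosome 16, and no unedited clone was analysed here. No group carried a designed deletion on chromosome 13, so both alleles compared here were untargeted copies.

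The table held 66 libraries of 53 clones from 26 deletion lines. The deleted parts were the segments A, B and C with early replication control elements, their binding sites for the factors Oct4, Sox2 and Nanog (OSN), their transcription start sites (TSS), and a further site Z. The lines were A.B.COSN123, A.BOSN1.COSN123, A.BOSN12.BTSS.COSN123, A.BOSN12.COSN123, A.COSN12, A.COSN123, AOSN.B.COSN123, AOSN.BOSN12.COSN123, AOSN.COSN12, AOSN.COSN123, ATSS.BTSS.CTSS, BOSN1.COSN123, BOSN12.COSN123, BTSS, BTSS.CTSS, CL20k, COSN1, COSN1.2.8k, COSN12, COSN123, CR11.8k, CR13.4k, CR14.6k, CTSS, Z.AOSN.COSN123 and Z.B.C. The line COSN123 was 1 clone, A10, measured in 4 cultures, and most lines with COSN123 in their name were derived from it, so clones are not all independent. One clone without musculus values on chromosome 13 (A.B.COSN123 2E.1) and one without castaneus values there (AOSN.B.COSN123 3C.4) were left out, which left 51 clones and 62 libraries of all 26 lines. A value below is the mean over clones ± SD, with cultures of a clone averaged first. The values used here are ratios only, so the read depth is unknown here. The share of windows with a value on an allele ran from 73.8% to 93.8% per library.

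DNA is replicated in a set order during S phase, in large domains, and early domains are usually rich in active genes while late domains lie near the nuclear lamina. The 2 copies of most domains replicate together, and in hybrid cells the copies of some domains differ with the strain they came from. Trpc7 encodes a diacylglycerol-activated cation channel of the canonical transient receptor potential (TRPC) family. Spock1 encodes testican-1, a proteoglycan of the extracellular matrix that belongs to the SPARC family. RNA was not part of these files, so nothing here is a measure of expression.

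Both genes lie on the minus strand and differ in the DNA at their start. GENCODE places Trpc7 at chr13:56773113-56895993 and Spock1 at chr13:57421195-57908332, and their starts are 1012 kb apart. The 525 kb between the start of Trpc7 and the 3′ end of Spock1 hold 3 annotated genes, none of them protein-coding. The promoters below are shown because the start of Trpc7 lies where the alleles were far apart, the start of Spock1 lies where the order of the alleles had turned, and Smad5, a signal transducer of bone morphogenetic proteins, starts inside the stretch that is earlier on castaneus. Each runs from 250 bases before to 50 bases after the start used for that promoter, 5′ to 3′ on the gene's strand. The promoters are from RefSeq on GRCm38.p6 (the assembly of mm10). For Trpc7 the start used lies inside the gene as GENCODE places it, so most of the bases shown are downstream of the GENCODE start. This reference is C57BL/6J, neither of the alleles measured. Capitals mark CpG dinucleotides.
Trpc7 (chr13:56895740-56896039, minus strand): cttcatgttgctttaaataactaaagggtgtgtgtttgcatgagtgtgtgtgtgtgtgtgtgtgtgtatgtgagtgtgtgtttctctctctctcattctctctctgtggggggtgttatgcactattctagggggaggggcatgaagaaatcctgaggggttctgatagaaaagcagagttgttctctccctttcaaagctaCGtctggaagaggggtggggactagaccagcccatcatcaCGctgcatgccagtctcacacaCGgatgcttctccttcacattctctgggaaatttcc
Spock1 (chr13:57908283-57908582, minus strand): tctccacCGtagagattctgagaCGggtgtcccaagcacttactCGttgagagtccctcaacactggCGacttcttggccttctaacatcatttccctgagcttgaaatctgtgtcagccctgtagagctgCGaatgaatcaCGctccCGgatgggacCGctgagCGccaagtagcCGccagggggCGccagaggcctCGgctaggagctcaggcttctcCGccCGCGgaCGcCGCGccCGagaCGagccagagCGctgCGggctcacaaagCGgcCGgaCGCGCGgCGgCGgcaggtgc
Smad5 (chr13:56702760-56703059, plus strand, the first of 3 listed starts): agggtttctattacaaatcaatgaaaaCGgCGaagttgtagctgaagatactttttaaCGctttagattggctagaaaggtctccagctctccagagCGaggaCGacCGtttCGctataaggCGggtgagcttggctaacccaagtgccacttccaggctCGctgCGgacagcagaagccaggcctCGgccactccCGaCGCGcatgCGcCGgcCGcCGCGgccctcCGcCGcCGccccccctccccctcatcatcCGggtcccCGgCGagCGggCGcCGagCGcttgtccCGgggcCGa

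The Trpc7 promoter held 3 CpG dinucleotides and 48.0% GC and ranked at percentile 23.1 by its number of CpGs among 32544 promoters of the same length. The Spock1 promoter held 29 CpGs (percentile 87.0) and 64.0% GC, and the Smad5 promoter held 31 (percentile 89.3) and 63.0% GC. The median over all promoters was 7 CpGs. The GC box GGGCGG was found on either strand in the Spock1 and Smad5 promoters and not in that of Trpc7, and 35.9% of all promoters held it. The TATA box TATAAA (13.6% of all promoters) and the octamer ATGCAAAT (1.75%), which POU factors such as Oct4 bind, were found in none of these 3 windows. These matches describe letters only.

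On the musculus allele the region was late across Trpc7 and most of Spock1, while the castaneus allele was early from before Trpc7 to the 3′ end of Spock1. Over the gene interval the musculus values of the 51 clones ran from -0.83 through a median of -0.37 to 0.00, with a mean of -0.40 ± 0.15. The castaneus values ran from 0.09 through 0.41 to 0.75, with a mean of 0.43 ± 0.15. The highest musculus clone lay below the lowest castaneus clone, so the alleles did not overlap, and every clone had a late musculus and an early castaneus mean. Castaneus minus musculus was 0.83 ± 0.13, from 0.54 (Z.B.C clone A6) through 0.82 to 1.18 (CL20k clone 85). As ranks within each profile, the interval stood at percentile 39.9 ± 5.15 on musculus and at percentile 60.7 ± 5.31 on castaneus.

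**Figure D1:**
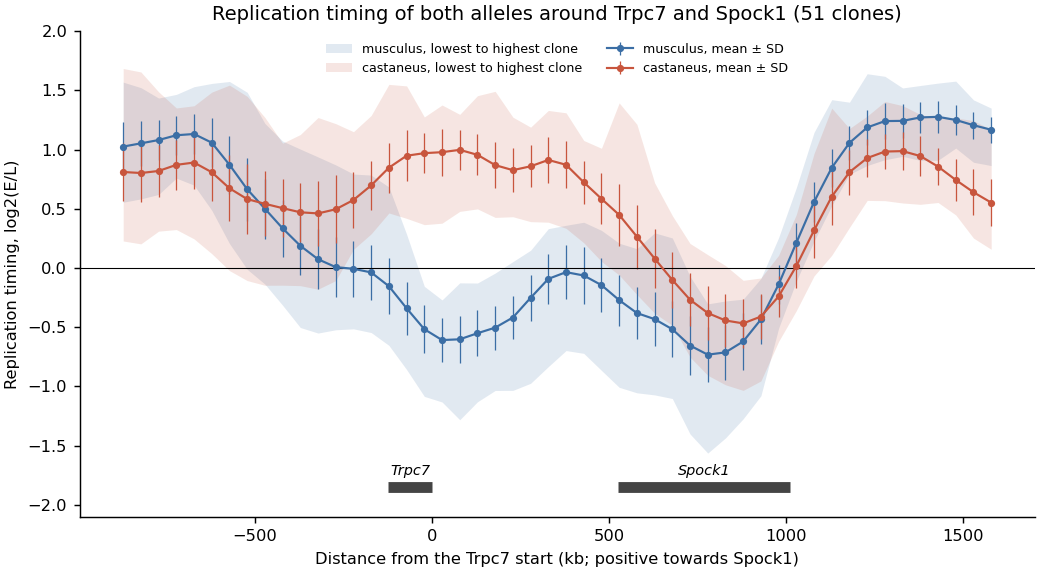
RT as log2(E/L) in 50 kb windows, against the distance of the window's centre from the start of Trpc7 in kb, for the musculus (blue) and castaneus (red) alleles. Points are means of 51 clones (48 to 51 per window), error bars are SD, shaded bands run from the lowest to the highest clone, and black bars mark both genes. The bands are apart from 56.80 to 57.25 Mb, that is from inside Trpc7 to the DNA between the genes, and near the start of Trpc7 musculus has a trough of -0.61 and castaneus a peak of 1.00.

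Both alleles had a late trough inside Spock1, and musculus also had one beside the start of Trpc7. From the left, musculus fell from a local high of 1.13 in the window at 56.20 Mb to a trough of -0.61 at 56.90 Mb, the window just upstream of the Trpc7 start. It rose to -0.03 at 57.25 Mb, in the gene-poor DNA between the genes, fell again to -0.73 at 57.65 Mb inside Spock1, and climbed to 1.28 at 58.30 Mb. The castaneus profile dipped to 0.46 at 56.55 Mb, peaked at 1.00 at 56.95 Mb and at 0.91 at 57.20 Mb, with 0.83 between these peaks, and had its lowest value of -0.47 at 57.75 Mb. The second castaneus peak lay 1 window from the local high of musculus, and the castaneus peak at 56.95 Mb lay 1 window from the musculus trough.

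The difference between the alleles was largest just upstream of Trpc7. In the window at 56.95 Mb the musculus clones ran from -1.28 through a median of -0.56 to -0.13, and the castaneus clones from 0.48 through 1.02 to 1.30. Castaneus minus musculus was 1.60 ± 0.22 there, ranging from 0.99 to 2.32, and ranked 1 of the 44170 windows with a value in at least 26 clones. In single clones the largest difference between the 3′ ends of both genes averaged 1.70 ± 0.21 and lay in that window or next to it in 43 of 51 clones. The lowest musculus window between those ends lay within 2 windows of it in 47 clones, and the highest castaneus window did in 38.

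The mean difference was at least 0.5 in 18 windows in a row, from 56.65 to 57.55 Mb, a stretch of 900 kb. The windows at either end had means of 0.58 and 0.51, and those just outside had 0.49 at 56.60 Mb and 0.42 at 57.55 Mb. Of the 50 windows, 18 passed this level, against 3.05% of all 44170 windows, and castaneus was earlier in every clone in 21, against 4.76%. The clones of both alleles did not overlap in 9 windows from 56.80 to 57.25 Mb, against 0.346% of windows with that pattern in this direction. The region was chosen on these differences, so the shares are given for scale only. Single clones had stretches of 550 to 1150 kb, with a median of 900 kb.

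**Figure D2:**
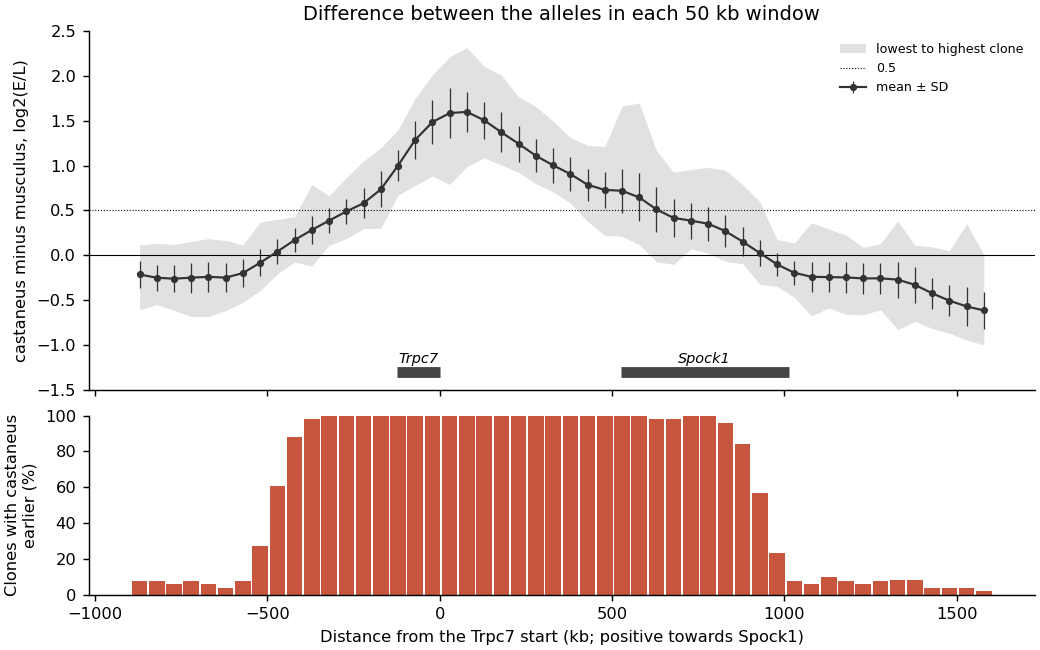
Castaneus minus musculus log2(E/L) per 50 kb window (upper panel; mean ± SD and range over 48 to 51 clones, dotted line at 0.5) and the percentage of clones in which castaneus was earlier (lower panel), against the distance from the Trpc7 start in kb. The difference peaks at 1.60 beside the start of Trpc7 and is below 0 on average on both sides of the stretch.

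On both sides of the stretch the order of the alleles was turned. Over the 8 windows from 56.00 to 56.40 Mb, musculus was at 1.00 ± 0.18 and castaneus at 0.78 ± 0.23, and castaneus was later in 50 of 51 clones, with castaneus minus musculus at -0.22 ± 0.12. Over the 13 windows from 57.85 to 58.50 Mb, musculus was at 0.95 ± 0.08 and castaneus at 0.63 ± 0.15, and castaneus was later in 50 of 51 clones too, with a difference of -0.33 ± 0.12. The clone ranges overlapped on both sides. How often castaneus was later in as many clones elsewhere on the autosomes was not counted here. In single clones the profiles crossed at 56.41 ± 0.055 Mb on the left (50 clones) and at 57.83 ± 0.084 Mb on the right (51 clones). Over all of chromosome 13 the median castaneus minus musculus was 0.05 ± 0.03, so the flanking differences had the opposite sign to the offset of the chromosome.

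Of the 3 windows of Trpc7, those at 56.80 and 56.85 Mb had no overlap between the clones of both alleles, and the clones overlapped in the window at 56.75 Mb. Over the gene body the musculus values ran from -0.82 through a median of -0.33 to 0.27 (mean -0.34 ± 0.21), and the castaneus values from 0.44 through 0.92 to 1.40 (mean 0.92 ± 0.18). The highest musculus clone, ATSS.BTSS.CTSS A1, also had the highest castaneus value of all clones. Castaneus minus musculus over Trpc7 was 1.26 ± 0.19, from 0.81 to 1.70, and castaneus was earlier in 51 of 51 clones. In the window of the Trpc7 start musculus was at -0.52 ± 0.20 and castaneus at 0.97 ± 0.17, and the mean difference rose along the gene from 1.00 at its 3′ end to 1.49 at its start. Among mean window values, the gene stood at percentile 43.5 on musculus and at percentile 72.0 on castaneus.

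Spock1 spanned the end of the stretch, and its ends had opposite orders of the alleles. Over its 11 windows the musculus values ran from -0.88 through -0.40 to 0.00 (mean -0.43 ± 0.16), and the castaneus values from -0.54 through -0.13 to 0.26 (mean -0.14 ± 0.19). These ranges overlapped, although castaneus was earlier in 51 of 51 clones by 0.29 ± 0.14. In the window of the 3′ end castaneus minus musculus was 0.72 ± 0.24 and castaneus was earlier in every clone. In the window of the gene start musculus ran from -0.11 through 0.23 to 0.68 and castaneus from -0.36 through 0.02 to 0.45, and castaneus was later in 47 of 51 clones, with a difference of -0.20 ± 0.13. In the window at 57.65 Mb, inside the gene, both alleles were late on average, at -0.73 ± 0.23 on musculus and -0.38 ± 0.23 on castaneus.

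The other protein-coding genes of the interval followed the same profile by position. Of 23 genes, 10 had castaneus earlier on average and 13 had castaneus later. Castaneus was earlier in every clone at 5 of them, Tgfbi, Smad5, Gm45623, Trpc7 and Spock1, which are neighbours in this order. Only Smad5, Gm45623 and Trpc7 were late on musculus and early on castaneus on average. Spock1 was late on both, and the other 19 were early on both. The shares of all protein-coding genes with these patterns were not counted here. Of all 44170 windows, 4.76% had castaneus earlier in every clone, but a gene can span several windows. The region was chosen on this difference, so the counts are a description.

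**Figure D3:**
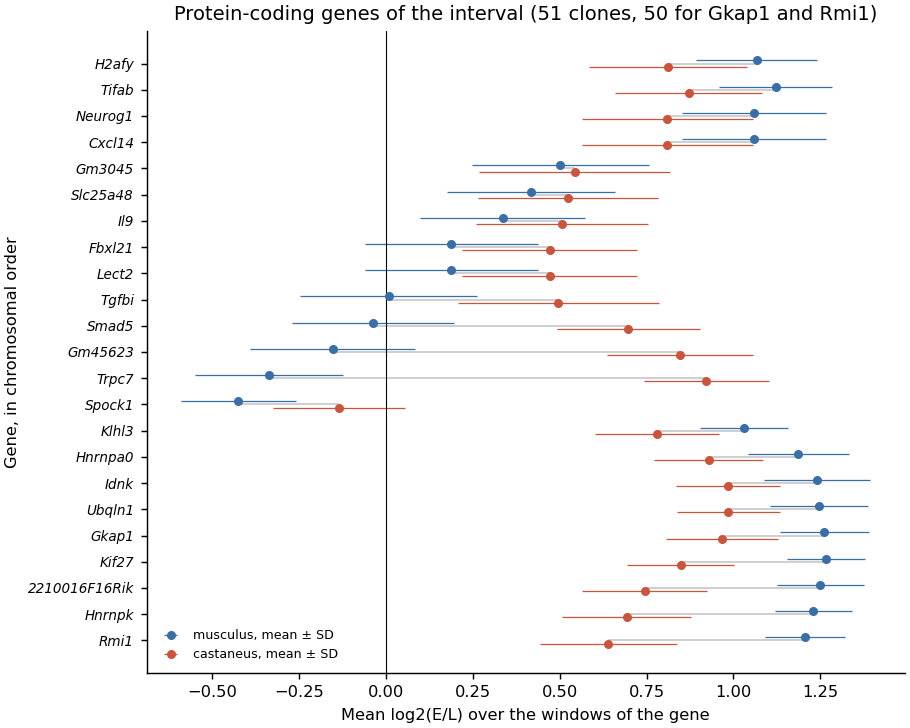
Mean log2(E/L) over the windows of each protein-coding gene, in chromosomal order from top to bottom, for musculus (blue) and castaneus (red), with SD over 51 clones (50 for Gkap1 and Rmi1). Along the list the points cross on either side of the Trpc7 region, with castaneus to the right of musculus from Gm3045 to Spock1 and to the left of it elsewhere.

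Smad5 was at -0.04 ± 0.23 on musculus and at 0.70 ± 0.20 on castaneus, a difference of 0.73 ± 0.20. Gm45623, a predicted gene beside Trpc7, was at -0.15 on musculus and at 0.85 on castaneus, a difference of 1.00 ± 0.18. Tgfbi, a secreted matrix protein induced by TGF-beta, was at 0.01 ± 0.26 and 0.50 ± 0.29, a difference of 0.49 ± 0.14, and so lay at the edge of the stretch. Further left, the difference shrank from 0.28 ± 0.16 at Lect2, a liver-derived secreted protein, and the F-box gene Fbxl21 in the same window, through 0.17 ± 0.13 at the cytokine gene Il9, to 0.11 ± 0.12 at the mitochondrial carrier Slc25a48 and 0.04 ± 0.14 at Gm3045. At the 4 leftmost genes, H2afy (the histone variant macroH2A1), Tifab, the neurogenic factor Neurog1 and the chemokine Cxcl14, castaneus was later on average, with differences of -0.25 to -0.26. Neurog1 and Cxcl14 share a window and have the same value.

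To the right of Spock1 the difference became more negative with distance. Klhl3, an adaptor of a ubiquitin ligase, was at 1.03 ± 0.13 on musculus and 0.78 ± 0.18 on castaneus, and the RNA-binding protein gene Hnrnpa0 at 1.19 ± 0.15 and 0.93 ± 0.16. Castaneus minus musculus was -0.26 at Hnrnpa0, Idnk (a gluconate kinase) and Ubqln1 (ubiquilin-1), -0.30 at Gkap1, -0.42 at the kinesin gene Kif27 and -0.51 at 2210016F16Rik. Hnrnpk, whose product binds RNA and DNA, was at 1.23 ± 0.11 on musculus and 0.69 ± 0.18 on castaneus, and Rmi1, a partner of the BLM helicase, at 1.21 ± 0.12 and 0.64 ± 0.20. Castaneus was later in 49 of 51 clones at Hnrnpk and in 48 of 50 at Rmi1. The files continue beyond 58.50 Mb, where castaneus minus musculus was -0.62 ± 0.21 in the last window of the interval.

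The stretch had a lower median GC content than both of its flanks and a higher one than the chromosome. The median GC content of the windows was 48.7% on the left flank, 44.6% in the 900 kb stretch and 45.4% on the right flank, against 41.5% over 2341 windows of chromosome 13. The share of repeat-masked bases had medians of 20.1%, 23.7% and 27.6% in the same parts, against 30.6% over the chromosome. These values are of the reference genome and say nothing of differences in sequence between musculus and castaneus.

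Castaneus was earlier over the gene interval in every clone and so in every deletion line. The region was chosen on this difference in these data, so this is a description only. Line means ran from 0.57 in Z.B.C (2 clones) through a median of 0.83 to 1.07 in CL20k (2 clones). The 4 cultures of COSN123 clone A10 gave 0.70, 0.67, 0.83 and 0.99. The SD between cultures of a clone was 0.12 (20 cultures of 9 clones) and the SD between clones 0.13. The cultures differed by 0.38 in CTSS clone C12 and by 0.32 in COSN123 clone A10, and by 0.0039 to 0.13 in the other 7 clones, so the spread between cultures was carried by 2 clones. For the musculus level these SDs were 0.07 and 0.15, and for the castaneus level 0.11 and 0.15.

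**Figure D4:**
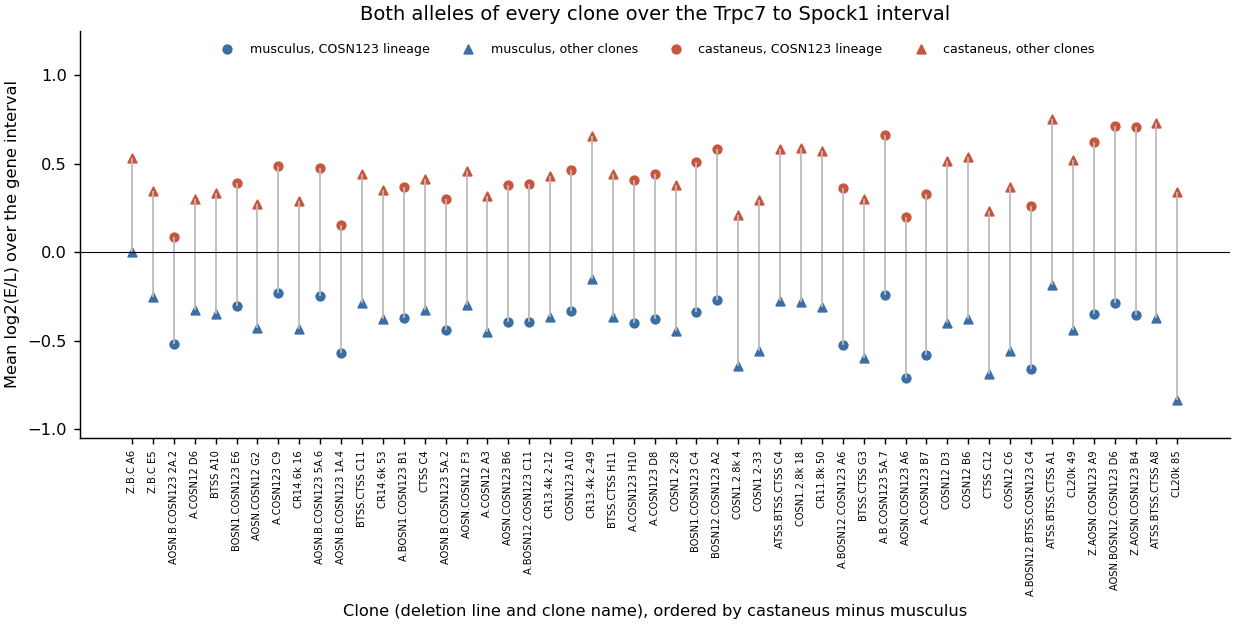
Mean log2(E/L) over the gene interval on musculus (blue) and castaneus (red) for each of the 51 clones, ordered by castaneus minus musculus, with circles for clones of the COSN123 lineage and triangles for the others. All castaneus points lie above 0 and all musculus points below 0, and the difference runs from 0.54 to 1.18.

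At Trpc7 the line means of castaneus minus musculus ran from 1.00 in Z.B.C to 1.62 in A.BOSN12.BTSS.COSN123 (1 clone), with a median of 1.29. The SD between clones of a line was 0.18 and the SD over all clones 0.19. No step between neighbours in that order exceeded 0.18, but the 25 steps of a sorted order are small by construction. The 4 clones of AOSN.B.COSN123 had castaneus values of 0.52, 0.44, 0.75 and 0.84 at Trpc7, and their musculus values were -0.44, -0.37, -0.42 and -0.33. Their castaneus values were all below the median of all clones, 0.92, and their musculus values were at or below the median of -0.33. The 3 clones of ATSS.BTSS.CTSS had musculus values of 0.27, -0.12 and -0.08 and castaneus values of 1.40, 1.11 and 1.07, so both alleles were high in that line. At Spock1 the line means ran from 0.06 in BTSS (1 clone) through 0.27 to 0.72 in AOSN.BOSN12.COSN123 (1 clone). The last step, 0.21, was the only 1 of 25 that exceeded the SD between clones of a line, 0.07. The SD over all clones at Spock1 was 0.14. Whether the lines differ at either gene was not tested.

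The clones can also be listed by the allele of the Dppa domain on chromosome 16 that carried the deletion. The region was chosen on castaneus being earlier in these data, so its sign in each set is a description. An effect of the deleted allele was not tested. From Dppa4 to Morc1 (chr16:48250001-48650000) castaneus minus musculus was 0.55 ± 0.39 in the 41 clones with a deletion on the musculus allele only, and castaneus was earlier in 40 of them. In the 2 clones with the deletion on castaneus only, the domain's difference was -0.20 (CR11.8k clone 50) and 0.18 (CTSS clone C4). In the gene interval around Trpc7 the same clones had 0.88 and 0.74, inside the range of 0.54 to 1.18 of the clones deleted on musculus. In 7 clones both alleles carried a deletion, and the castaneus allele was marked with B, ATSS or BTSS only, a part of the line's deletions. Their domain's difference was 0.64 ± 0.46, and the gene interval ran from 0.61 through 0.86 to 1.10. The remaining clone, COSN1.2.8k clone 18, lacked castaneus values on chromosome 16.

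The 22 clones whose line names hold COSN123 (the COSN123 lineage) and the 29 other clones did not differ detectably in the gene interval. Castaneus minus musculus was 0.83 ± 0.11 against 0.82 ± 0.14, a difference of 0.00 with a 95% interval (Welch) from -0.07 to 0.07 (p = 0.93, permutation test, two-sided; adjusted p over 3 measures 0.93). The musculus level was -0.41 ± 0.14 against -0.39 ± 0.17 (difference -0.01, interval -0.10 to 0.07; p = 0.786, permutation test; adjusted p = 0.93). The castaneus level was 0.42 ± 0.17 against 0.43 ± 0.15 (difference -0.01, interval -0.10 to 0.08; p = 0.843, permutation test; adjusted p = 0.93). Founder clone, deletion and time of work cannot be told apart in this comparison. Per the study, COSN12 and COSN123 were both made in COSN1 cells, so the other clones include relatives of the COSN123 lineage. The tests treat clones as independent, so they cannot show that the locus is alike between founders.

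By window, limma called none of the 50 windows between the lineages at an adjusted p under 0.05 for castaneus minus musculus, the musculus level or the castaneus level. At an unadjusted p under 0.05 it had 2, 2 and 1 of 50. Over the autosomes it called 0.231% of 42917 windows for castaneus minus musculus, 1.05% of 44571 for the musculus level and 0.4% of 44503 for the castaneus level. The median estimate over the 23 windows of the gene interval was 0.01 for castaneus minus musculus, beside 0.01 over all windows tested.

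The levels of the alleles moved together between clones. Over 51 clones the musculus and castaneus levels of the gene interval had a Pearson r of 0.66 and a Spearman rho of 0.73 (both p = 1e-05, the smallest 100000 permutations can give; adjusted p = 3e-05 over 3 relations). Both values of a clone come from the same libraries. Without the 2 clones farthest from the median r was 0.72, and it was 0.76 within the COSN123 lineage and 0.62 within the other clones. A clone with an earlier castaneus level thus tended to have a less late musculus level.

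**Figure D5:**
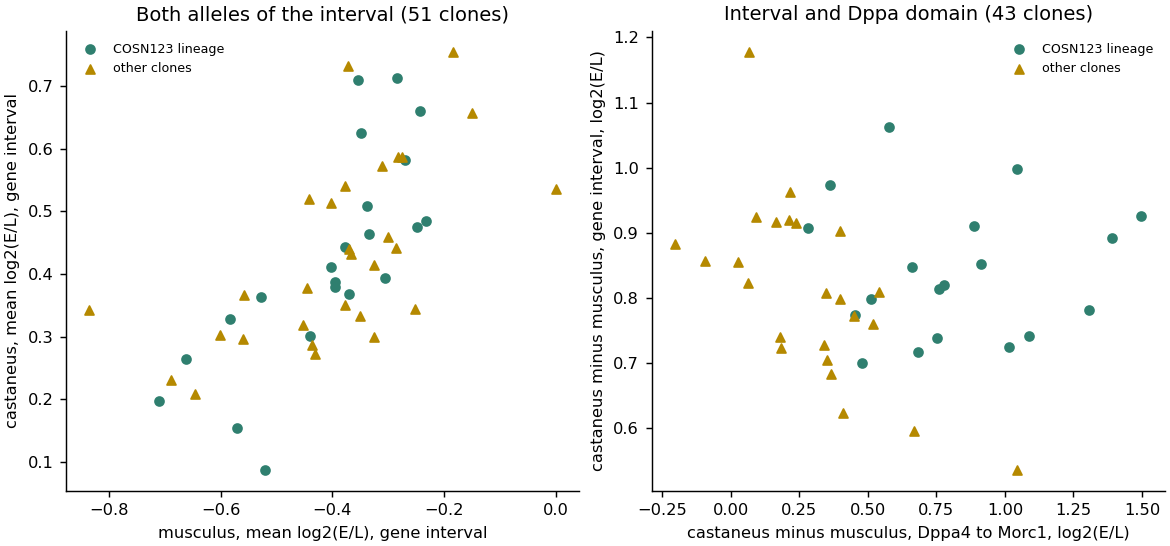
Left, castaneus against musculus level over the gene interval, as mean log2(E/L), for 51 clones. Right, castaneus minus musculus over the gene interval against castaneus minus musculus from Dppa4 to Morc1 for the 43 clones with a deletion on one allele, with circles for the COSN123 lineage and triangles for other clones. The levels rise together in the left panel (r = 0.66), and in the right panel r is -0.65 for the triangles and 0.02 for the circles, or -0.57 and -0.18 without the 2 farthest of each.

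Over the 43 clones with a deletion on one allele, the difference in the gene interval showed no detectable relation to the difference in the Dppa domain (r = -0.17, p = 0.277; rho = -0.21, p = 0.175; permutation tests; adjusted p = 0.277 and 0.175 over 3 relations), and r was -0.30 (p = 0.0581, permutation test) without the 2 farthest clones. Within the lineages, r was 0.02 (p = 0.948, permutation test) in the 19 clones of the COSN123 lineage and -0.65 (p = 0.00091, permutation test) in the 24 others, and without the 2 farthest clones of each it was -0.18 (p = 0.483, permutation test) and -0.57 (p = 0.00548, permutation test). Whether these correlations differ between the lineages was not tested. The difference in the gene interval was related to the share of windows with a value (r = 0.38, p = 0.00608; rho = 0.48, p = 0.00033; permutation tests; adjusted p = 0.00912 and 0.000495), and r was 0.39 without the 2 farthest clones. Within the lineages r was 0.19 (p = 0.391, permutation test) for COSN123 and 0.47 (p = 0.00852, permutation test) for the others. Whether these differ was not tested either. The part of data completeness in the size of the difference was not tested.

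Among 17268 protein-coding genes outside chromosome 13, those whose castaneus minus musculus followed that of the gene interval best over clones were Vmn2r13 (r = 0.56, 46 clones), Dut (0.54, 51 clones), Kat6b (0.52, 49 clones), St8sia6 (0.51, 51 clones) and Scgb3a1 (0.51, 45 clones). Over all these genes r ran from -0.53 through a median of -0.01 to 0.56, with a 99th percentile of 0.38, and the named genes are given as a description. Many of these clones share a founder. At St8sia6 the alleles were ordered the other way, with musculus at 0.37 and castaneus at -0.55 in the window of its start.

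None of the measured paralogs of either gene differed between the alleles by as much as Trpc7, but Smoc1, of the SPARC family, differed by more than Spock1. Of the TRPC genes, 6 of 7 lie on autosomes with values, and Trpc7, chosen for its difference, was the only 1 with a difference of 0.5 or more in either direction. Trpc1 was early and Trpc4 late on both alleles, with differences of 0.18 ± 0.14 and -0.02 ± 0.16. Trpc6, like Trpc7 a diacylglycerol-sensitive channel, was later on castaneus in 51 of 51 clones, with musculus at -0.50 ± 0.15 and castaneus at -0.88 ± 0.15. In the SPARC family none of 8 genes reached 0.5. Spock2 was at 1.35 on both alleles and Spock3 at -1.41 ± 0.16 and -1.31 ± 0.17. Smoc1 was later on castaneus in 51 of 51 clones, with a difference of -0.38 ± 0.13, larger in size than that of Spock1 (0.29 ± 0.14). Of all 44170 windows, 3.05% had a mean castaneus minus musculus of at least 0.5, so a lack of such genes in families this small says little. The share of all genes that differed by 0.5 or more in either direction was not counted here. Nor was the share of genes later on castaneus in every clone.

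As a check of the cell type, the start windows of 9 pluripotency genes (Pou5f1, Sox2, Nanog, Klf4, Esrrb, Zfp42, Tfcp2l1, Dppa2 and Dppa4) were early on both alleles, from 0.42 to 1.32 on musculus and from 0.73 to 1.35 on castaneus. The start windows of 4 neural genes (Sox1, Pax6, Olig2 and Neurog2) were early too, from 0.54 to 0.98 and from 0.48 to 0.93, so timing at these genes does not tell the cell types apart. Dppa2 and Dppa4 lie in the domain that carried the deletions.

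On the autosomes, 217 runs of windows, the stretch at Trpc7 included, had a mean castaneus minus musculus of at least 0.5, with a median length of 250 kb. The stretch at Trpc7 ranked 6 of 217 by length, 3 by its mean difference and 1 by its largest window. It was late on musculus and early on castaneus on average, as were 79 of the 217 runs, itself included. The longest, on chromosome 4 from 9.30 to 10.50 Mb with Clvs1, Asph and Gdf6, was 1200 kb long with a mean difference of 0.96 and a largest window of 1.45. A further run, on chromosome 17 from 72.55 to 73.60 Mb (Alk to Galnt14), was 1050 kb long with a mean difference of 0.87. The stretch at Trpc7 had a mean of 1.05, with musculus at -0.30 and castaneus at 0.75, while the longest run had musculus at -0.73 and castaneus at 0.23. These values were not tested against each other.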

How the data were processed

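Per the labels and the study's methods, the authors trimmed reads with Trim Galore and cutadapt, aligned them with bowtie2 to an N-masked mm10 genome, assigned them to musculus or castaneus with SNPsplit and, after removal of duplicates (Samtools), counted them per 50 kb window with bedtools. The deposited values are log2(E/L) ratios, scaled, quantile-normalized and loess-smoothed over 300 kb by the authors, so neighbouring windows are not independent and small features are blurred. Versions are not given in the sources used here. Of 71 labelled libraries, 5 had no column and were not analysed here. Repeat runs of 3 libraries were averaged. The musculus allele is of strain 129SvImJ and is shown in the headers as genome 1, which was matched through the allele that the study lists as deleted in each clone.

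Values were averaged over cultures to clones, and clones with values in at least 80% of chromosome 13 windows on both alleles were kept. Depth is unknown, so no counting error is given. Groups were compared with permutation tests (100000 resamples; Python 3.11.15, numpy 2.4.6, scipy 1.17.1) and windows with limma 3.58.1 in R 4.3.3, with Benjamini-Hochberg adjustment over all autosomal windows with a value in at least 50% of the clones of each group. Tests were tried on simulated data first. Genes came from GENCODE vM21, and promoters from RefSeq. Named genes were Trpc7, Spock1, all protein-coding genes of the interval, the paralogs of both, 9 pluripotency and 4 neural markers, the 5 genes most alike over clones at most 1 per 2 Mb, and the 3 longest runs elsewhere, of which 1 is not reported here. The members and lists were chosen with earlier results of these data known. Clones that share a founder, and cultures of a clone, differ by a spread that may be technical. Labels share replicate numbers between lines, which name cultures or clones and do not pair lines.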

Additional observations from a re-analysis of the deposited data

Results flagged for a closer look

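In AOSN.B.COSN123, clone 2A.2 had a castaneus minus musculus of 0.61 over the gene interval, and the other 3 clones of that line lay between 0.72 and 0.74. The gap was large for the range of 4 values. It was the only 1 of 21 sets of values tested this way, and about 1 in 20 sets is expected to stand out by chance. The cause was not tested.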

How the results depend on the processing

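The castaneus minus musculus difference of the gene interval stayed between 0.74 and 0.84 with libraries or deletion lines as the unit. The same held with each profile centred on its chromosome 13 median and with the first of repeat runs. It also held without the COSN123 lineage and with each line left out. Interpolation could not change the difference, since every window of the gene interval had a value in every clone. Over the whole wider interval, which holds the flanks of opposite sign, it was 0.32. No value could be had with the incomplete clones kept, since each lacks an allele. The stretch was 1250 kb long at a threshold of 0.25 and 500 kb at 1.0. The COSN123 lineage minus the other clones for castaneus minus musculus turned sign to -0.01 with libraries as the unit (-0.0108), to -0.0085 over the wider interval, to -0.0082 with centring, to -0.0514 in the 20 libraries with a number in their title and to -0.0703 (p = 0.374, permutation test within numbers) with that number as a replicate block, where the lines share numbers 1 and 2 only and 2 libraries a number are of other lines. With centring, the musculus and castaneus levels turned to 0.0259 and 0.0177. None of these passed a p of 0.05. The relation to the Dppa domain was -0.30 without the 2 farthest clones, 0.0163 within the COSN123 lineage (-0.18 without its 2 farthest) and -0.65 within the other clones (-0.57 without their 2 farthest). The relation to the share of windows with a value was 0.19 within the COSN123 lineage and 0.15 there without the 2 farthest. The leave-one-line-out values, the libraries with the number not used, and the values within lineages for the share of windows, the allele levels and the 2 farthest clones were chosen after seeing the data. The cause of these changes was not tested. Smoothing, the unknown depth and shared founders limit what the SDs between clones mean.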

Other observations

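The clones left out each had values on one allele of chromosome 13. A.B.COSN123 clone 2E.1 (2 libraries) had a castaneus level of 0.62 over the gene interval, and AOSN.B.COSN123 clone 3C.4 (2 libraries) had a musculus level of -0.44. Both lay inside the ranges of the 51 other clones on those alleles.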
